A study of Mus musculus with 108 samples.

Results

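The Rab genes encode small GTPases that mark the membranes of the cell and steer vesicles between them. Members were taken as every gene of the polyA and RiboMinus count files whose symbol is Rab followed by a number and at most one letter and one further digit, which gave 59 of 55573 genes. The study measured RNA in single mouse oocytes in which Exosc10, a nuclease of the RNA exosome, was deleted only in the oocyte (cKO), beside control oocytes. The alleles of the controls, the promoter of the deletion, the strain and the age of the females are not given in the sources used here. Fully grown oocytes were taken at the germinal vesicle stage (GV), after 3 h of culture in M2 medium (GV3h), and as ovulated eggs from the oviduct at metaphase II (MII). PolyA libraries, captured with oligo-dT beads and amplified, covered 7 control oocytes of 2 females and 15 cKO oocytes of 2 females at GV, 8 control oocytes of 3 females and 11 cKO oocytes of 3 females at GV3h, and 8 control eggs of 3 females and 15 cKO eggs of 3 females at MII. RiboMinus libraries, primed with random hexamers and made without selection for a poly(A) tail, covered 8 control oocytes of 2 females and 7 cKO oocytes of 2 females at GV, and 3 control eggs of 1 female and 4 cKO eggs of 2 females at MII. The replicate was the female, named in the sample titles, and not the oocyte, except where the oocyte is named as the replicate of an alternative.

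A Rab protein cycles between a GDP-bound form held in the cytosol and a GTP-bound form on a membrane. Guanine nucleotide exchange factors switch it on, GTPase activating proteins switch it off, and the active form recruits effectors that move, tether and fuse vesicles. Rab5 proteins act on early endosomes, Rab7 on late endosomes and lysosomes, Rab4 and Rab11 proteins on recycling endosomes, Rab1, Rab2 and Rab6 proteins between the endoplasmic reticulum and the Golgi, and Rab3, Rab8 and Rab27 proteins on vesicles bound for the cell surface. The mouse oocyte uses such traffic for uptake, for the long-range movement of vesicles along actin, and for release of cortical granules after fertilisation, in which Rab3a and Rab27a are known to take part.

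The gene targeted in the cKO checked the labels. Exosc10 was at most 4.44 CPM (counts scaled to a common library size) in the cKO polyA libraries against at least 42.95 CPM in the controls, and at most 8.28 CPM against at least 84.9 CPM in the RiboMinus libraries. Total counts assigned to genes ranged from 4638718 to 8735914 in the 64 polyA libraries and from 12319658 to 62675760 in the 22 RiboMinus libraries. The summed level of the oocyte markers was at least 7347 CPM in every library and that of the granulosa cell markers at most 112 CPM. The summed blood and immune markers reached higher in cKO than in control libraries: they ran from 2.42 to 15.3 CPM against 0.597 to 3.74 CPM at polyA GV, 0.669 to 12.2 against 0.216 to 2.13 CPM at GV3h, 1.04 to 9.59 against 0 to 1.89 CPM at MII and 0.951 to 9.65 against 0.734 to 2.43 CPM at RiboMinus GV. Of these 6 markers Hba-a1 was at 0 in all 86 libraries, Cd68 had a count in 82, and the other 4 had one in at most 13. More genes were detected in cKO too, 20149 to 21753 against 18098 to 19626 per oocyte at polyA GV, 20933 to 22147 against 18529 to 19290 at GV3h and 16383 to 18025 against 13699 to 16389 at MII, where the ranges overlap slightly. RiboMinus gave 20885 to 24311 against 20395 to 21790 genes at GV and 19957 to 23488 against 17703 to 18004 at MII. Summed theca cell markers ran from 2.71 to 9.46 CPM in cKO against 0 to 0.185 CPM in controls at RiboMinus MII. They also reached higher in cKO at polyA GV, GV3h and RiboMinus GV, and lower at polyA MII (3.63 against 4.65 CPM). The part of these differences in the member results, Rab20, Rab31 and Rab37 included, was not tested. Both RiboMinus GV cKO oocytes V1126_2 and V1126_3 stood apart from the other 5 of their group: on the first principal component of all genes they lay at -0.73 and 49.5, where the 8 controls lay between 30.5 and 75.4 and the other 5 cKO oocytes between -136 and -101. Their Exosc10 was as low as in the rest of the group. RiboMinus GV results on members are therefore given with and without them. Since they were picked for lying toward the controls over all genes, leaving them out tends to widen genotype differences. Results without them are thus no separate check of the polyA calls. Female V1126 is then represented by oocyte V1126_4 only.

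Control oocytes held a few abundant Rab RNAs and many scarce ones. In CPM divided by exon length in kilobases, the scale used for all comparisons of levels between genes, the highest members in the polyA GV controls were Rab38 at 189, Rab11a at 133, Rab7 at 101, Rab6a at 65.1 and Rab3d at 50.9. Rab38 acts in the traffic of lysosome-related organelles, Rab11a in recycling endosomes, Rab6a at the Golgi and Rab3d on secretory granules. Below them the median over the 59 members was 1.44. The RiboMinus GV controls had much the same ranking, led by Rab7 at 116, Rab38 at 99.0, Rab10 at 66.8, Rab11a at 65.9 and Rab6a at 63.2. Over the 59 members the mean levels per kilobase of the 2 library types had a Pearson r of 0.969 and a Spearman rho of 0.965 on the log2(value + 0.1) scale, a description across genes that share an annotation and a build.

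**Figure D1:**
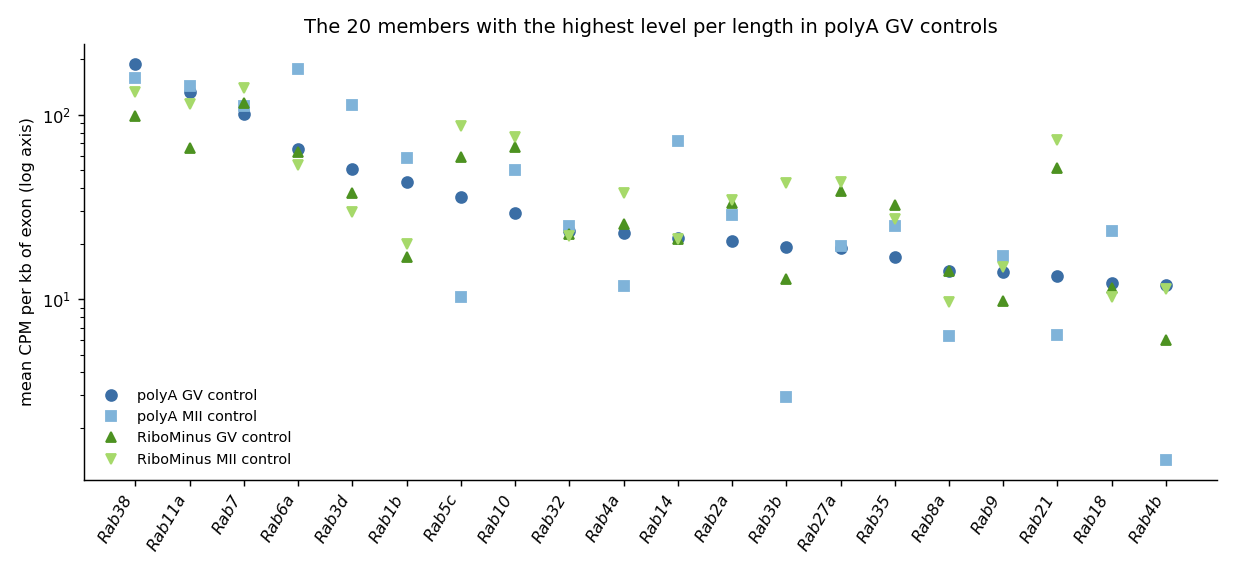
Mean level in CPM per kilobase of exon (log axis) of the 20 members that were highest in polyA GV controls, in the GV and MII control groups of both library types; each point is the mean over the oocytes of a group. Rab38, Rab11a and Rab7 lie near or above 100 in most groups, while Rab3b and Rab4b fall far below their other 3 points in the polyA MII group.

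With TMM scaling, the summed CPM of all 59 members differed little by genotype. The lowest, median and highest oocyte were at 2718, 2821 and 3015 CPM in polyA GV controls and at 2541, 2779 and 2960 CPM in polyA GV cKO oocytes. At MII the polyA controls were at 4029, 4250 and 4824 CPM and the cKO eggs at 3899, 4330 and 4631 CPM. The ranges of the genotypes overlap at both stages, and the polyA MII eggs of either genotype lie above all polyA GV oocytes on this scale. Per library total they overlap, with a highest GV cKO oocyte of 3442 CPM and a lowest MII egg of 3273 CPM. On that scale the cKO medians were above the control medians in polyA, at 3169 against 2998 CPM for GV and 3325 against 3002 CPM for GV3h. MII gave 3556 against 3409 CPM and RiboMinus GV 3170 against 2921 CPM, and the genotype ranges overlapped each time. In RiboMinus with TMM scaling the MII cKO eggs, from 2886 to 3957 CPM, overlap the GV oocytes, from 2824 to 3198 CPM. The 3 MII control eggs, from 3433 to 3593 CPM, lie above those GV oocytes. Per library total these control eggs, from 3186 to 3360 CPM, overlap the GV cKO oocytes, which reach 3318 CPM.

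The 5 comparisons of cKO with control ask which Rab RNAs change when Exosc10 is missing. Of the 59 members, 53 had enough counts for a test in polyA and 56 in RiboMinus, while Rab19, Rab27b and Rab42 were tested in neither and Rab15, Rab17 and Rab39 in RiboMinus only. A gene was called at an adjusted p under 0.05 in edgeR's quasi-likelihood test with Benjamini-Hochberg adjustment over all genes tested. Over the 5 comparisons 16 members were called higher in cKO at least once and 6 were called lower at least once. None was called in both directions, and 34 of the tested members were not called. The matching counts over all genes were not computed, so these totals have no background beside them. Exons of 15 of the 59 members overlap a gene on the other strand and those of 6 a gene on their own strand, 20 members in all, and the strand setting of the counting is not given in the sources used here. Of the 22 members called by genotype, 11 are among them. Rab20, Rab24, Rab2b, Rab33b, Rab39b, Rab3b, Rab40c, Rab5a and Rab7 overlap on the other strand, and Rab27a and Rab43 on their own. Reads in the shared bases may be left out as ambiguous or counted for either gene, so these counts are uncertain there.

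At polyA GV, 4 of 53 members were higher in cKO (Rab31, Rab37, Rab5a and Rab5b) and 2 were lower (Rab7 and Rab8b), where 3.47% of all 19242 genes tested were called higher and 3.91% lower. All 6 of these calls were lost in a fit over the polyA GV groups alone, where 1 of 18004 genes was called, with Rab8b at -1.78 (adjusted p = 0.144) and Rab31 at 1.49 (adjusted p = 0.241). At polyA GV3h, 12 were higher (Rab1a, Rab20, Rab24, Rab28, Rab2b, Rab30, Rab31, Rab33b, Rab37, Rab40c, Rab5a and Rab5b) and 4 lower (Rab12, Rab27a, Rab7 and Rab8b), against 12.5% and 12.7% of all genes. At polyA MII, 9 were higher (Rab1a, Rab24, Rab32, Rab37, Rab39b, Rab40c, Rab43, Rab5b and Rab5c) and 3 lower (Rab27a, Rab3d and Rab8b), against 11.9% and 6.99% of all genes. As a share of the members tested these are 7.55% higher and 3.77% lower at GV; GV3h gave 22.6% and 7.55%, and MII 17.0% and 5.66%; these differences from all genes were not tested. The median log2 fold change of the members was 0.13, 0.06 and 0.34 at the 3 stages and that of all genes 0.08, 0.07 and 0.12. Library totals in place of TMM scaling moved the median of all genes up by 0.19 at GV and 0.23 at GV3h and the share of called genes that were higher from 47.0% to 74.2% at GV and from 49.5% to 70.6% at GV3h, with 6 members higher and 2 lower at GV and 16 higher and 3 lower at GV3h.

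**Figure D2:**
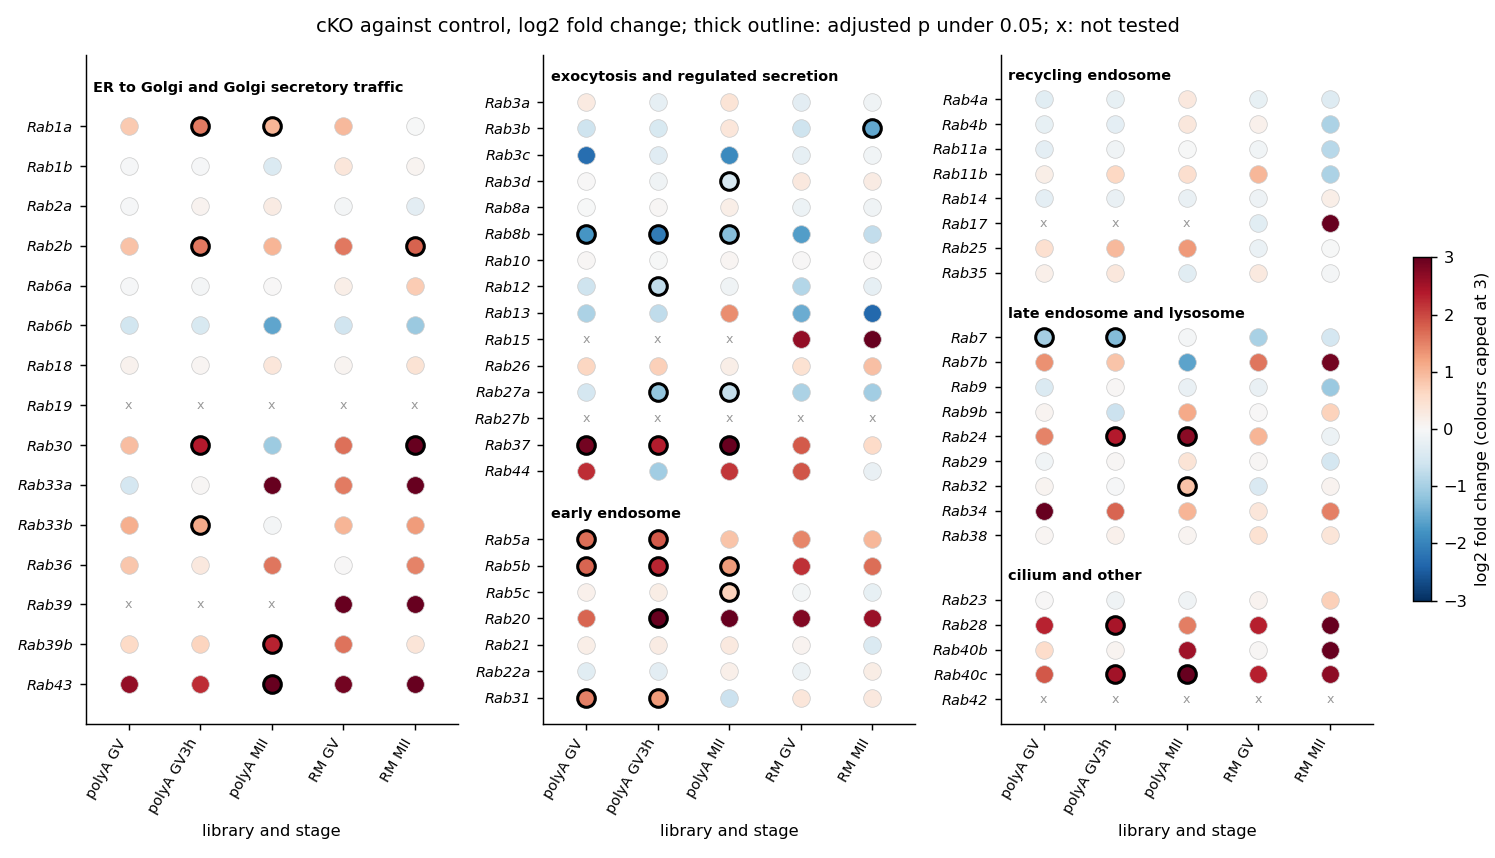
Log2 fold change of cKO against control (colour, capped at 3) for each of the 59 members by role, in the 3 polyA and 2 RiboMinus (RM) comparisons; a thick outline marks adjusted p under 0.05 and x a member not tested. Rab5a and Rab5b are red and Rab8b is blue in all 5 columns, and no member of the recycling endosome group has an outlined point.

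Of the 7 early endosome members, all tested, 3 were called higher in cKO at polyA GV, 4 at GV3h and 2 at MII, and none was called lower; over all genes 3.47%, 12.5% and 11.9% were higher. No test of the group was run. In both RiboMinus comparisons 0 of 7 were called, where 0.0315% of all genes were called in either direction at GV, so that a count of 0 says little, and 7.30% at MII. Without V1126_2 and V1126_3, Rab5a, Rab5b and Rab20 were called higher at RiboMinus GV, where 5.10% of all genes were higher and 5.28% lower. Rab5b, 1 of the 3 paralogues that tether and fuse early endosomes (chr10:128677175-128696264, minus strand, GRCm38), ran from 3.00 through a median of 4.05 to 5.46 CPM in the 7 polyA GV controls and from 4.75 through 13.6 to 23.8 CPM in the 15 cKO oocytes. The lowest cKO oocytes reach into the control range, while the means of the females do not overlap. At GV3h the controls ran from 2.01 through 3.26 to 4.35 CPM and the cKO oocytes from 6.15 through 17.4 to 26.6 CPM, with no overlap. The log2 fold change ± SE of Rab5b was 1.74 ± 0.43 at GV (adjusted p = 0.0258), 2.29 ± 0.37 at GV3h (adjusted p = 0.000462) and 1.29 ± 0.37 at MII (adjusted p = 0.0239). The GV call was lost on leaving out any 1 of the females V857, V856 or V889 (adjusted p 0.15 to 0.188), and the MII call on leaving out V897, V836 or V896 (adjusted p 0.0548 to 0.077) or in the fit over the polyA MII groups alone (adjusted p = 0.0826).

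Rab5a, its paralogue on the same endosomes, ran from 3.93 through 5.32 to 7.38 CPM in polyA GV controls and from 4.34 through 15.96 to 31.4 CPM in cKO oocytes. At GV3h it ran from 1.85 through 5.79 to 6.39 CPM in controls and from 9.30 through 18.2 to 30.7 CPM in cKO oocytes. The groups overlap at GV and are apart at GV3h. Its log2 fold change was 1.67 ± 0.38 at GV (adjusted p = 0.0183), 1.85 ± 0.32 at GV3h (adjusted p = 0.000793) and 0.85 ± 0.31 at MII, where it was not called (adjusted p = 0.0704). The GV call of Rab5a was lost without V857, V856 or V889.

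Rab5c, the most abundant of the trio, was called only at polyA MII, with 13.3, 23.1 and 31.5 CPM as the lowest, median and highest control egg and 28.2, 37.0 and 48.8 CPM in cKO eggs (log2 fold change 0.70 ± 0.16, adjusted p = 0.00705). Within the summed CPM per kilobase of the trio, the median share of Rab5b was 2.37% in polyA GV controls and 6.09% in cKO oocytes, and 2.23% and 8.76% at GV3h. Rab5c held 94.7% of the trio in GV controls and 88.3% in cKO oocytes, so it stayed the main form in both genotypes. Rab31, which acts between the Golgi and endosomes, was called higher at GV (1.51 ± 0.43, adjusted p = 0.0446) and GV3h (1.28 ± 0.36, adjusted p = 0.016). Its cKO oocytes spread widely at GV, from 11.9 to 114.7 CPM against 9.15 to 19.3 CPM in controls, and without female V857 its GV log2 fold change was 0.43 (adjusted p = 0.613); the GV call was also lost without V856 or V889 and the GV3h call without V982. Rab20, linked to phagosomes and endosomes, was called higher at GV3h on few counts, 3 in all in the 8 controls and 153 in the 11 cKO oocytes (adjusted p = 0.047). That call was lost without V946, V951, V982, V993 or V995 (adjusted p 0.0741 to 0.146) and kept only without V983.

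Rab7 and Rab8b were the members called lower at polyA GV. Rab7, the GTPase of late endosomes and lysosomes (chr6:87999106-88045270, minus strand), ran from 211.6 through 267.5 to 313.7 CPM in controls and from 79.6 through 133.8 to 194.1 CPM in cKO oocytes at GV. At GV3h it ran from 231.7 through 250.4 to 306.2 CPM in controls and from 56.9 through 89.5 to 183.9 CPM in cKO oocytes. Every cKO oocyte lies below every control oocyte at both stages. At MII the eggs overlap fully, from 257.9 through 280.0 to 346.2 CPM in controls and from 220.7 through 305.1 to 362.5 CPM in cKO. The log2 fold change of Rab7 was -1.01 ± 0.23 at GV (adjusted p = 0.017), -1.31 ± 0.19 at GV3h (adjusted p = 0.000241) and -0.06 ± 0.18 at MII (adjusted p = 0.86). Its GV call was lost without V857, V856 or V889. The change of the genotype difference from GV to MII was 0.96 ± 0.29 and did not pass (adjusted p = 0.112). Of the other late endosome members, Rab24, linked to autophagy, was called higher at GV3h (2.37 ± 0.62, adjusted p = 0.0112, lost without V951) and MII (2.71 ± 0.69, adjusted p = 0.0129, lost without V897 or V853 and, at adjusted p = 0.0791, in the fit over the polyA MII groups alone), but 1258 bases of its 2015 of exon overlap Prelid1 on the other strand; for Rab5a and Rab7 the overlap is 221 of 5270 and 204 of 2610 bases. Rab32, a mitochondrial and lysosome-related Rab, was called higher at MII (0.88 ± 0.17, adjusted p = 0.0021).

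Rab8b, which carries vesicles from the Golgi and recycling endosomes to the surface (chr9:66843664-66919687, minus strand), was lower in all 3 polyA comparisons. The lowest, median and highest oocyte were at 38.1, 45.9 and 64.7 CPM in GV controls and at 3.60, 16.7 and 27.4 CPM in GV cKO. At GV3h they were at 31.4, 41.1 and 45.3 CPM in controls and 4.65, 9.48 and 18.7 CPM in cKO, and at MII at 43.7, 79.3 and 96.1 CPM and 22.0, 31.1 and 45.0 CPM. The groups do not overlap at GV or GV3h and overlap slightly at MII. The log2 fold change was -1.77 ± 0.27 at GV (adjusted p = 0.00348), -2.10 ± 0.22 at GV3h (adjusted p = 5.59e-05) and -1.27 ± 0.22 at MII (adjusted p = 0.00111), and each call was kept on leaving out any 1 female, while the GV call was lost in the fit over the polyA GV groups alone (adjusted p = 0.144). Rab8a, its close paralogue, had medians of 66.8 CPM in GV controls and 65.7 CPM in cKO and was not called. The median share of Rab8b in the summed CPM per kilobase of the pair was thus 40.5% in GV controls and 18.3% in cKO, 37.8% and 11.1% at GV3h, and 74.7% and 47.9% at MII.

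Of the 13 exocytosis members tested in polyA, Rab8b included, 1 was higher and 1 lower at GV, and at each of the later stages 1 was higher and 3 lower. Over all genes 3.47% were higher and 3.91% lower at GV; the shares were 12.5% and 12.7% for GV3h and 11.9% and 6.99% for MII, and no test of the group was run. Rab27a, which docks secretory granules at the plasma membrane, ran from 76.6 through 87.4 to 104.4 CPM in GV3h controls and from 23.9 through 33.5 to 55.1 CPM in GV3h cKO oocytes, with no overlap. Its log2 fold change was -1.19 ± 0.19 at GV3h (adjusted p = 0.000393) and -0.72 ± 0.18 at MII (adjusted p = 0.0134), and -0.54 ± 0.22 at GV, where it was not called (adjusted p = 0.156). Rab12 was called lower at GV3h (-0.76 ± 0.24, adjusted p = 0.0292). It lost that call without V946, V951, V982, V993 or V995 (adjusted p 0.05 to 0.133), kept it only without V983, and was not called with library totals (adjusted p = 0.115) or without a filter on low counts (adjusted p = 0.104). Rab3d was called lower at MII (-0.50 ± 0.14, adjusted p = 0.0193), where its controls ran from 412.4 through 457.5 to 596.1 CPM and its cKO eggs from 277.8 through 340.7 to 434.8 CPM, and lost the call without V841, V842, V836 or V853 (adjusted p 0.0576 to 0.0645).

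Rab37, a secretory granule Rab, had the opposite direction at a low level. It ran from 0 through 0.51 to 1.03 CPM in polyA GV controls, 26 counts in all, and from 2.17 through 3.37 to 13.8 CPM in cKO oocytes, 556 counts in all. The log2 fold change of Rab37 was 2.89 ± 0.75 at GV (adjusted p = 0.0299), 2.35 ± 0.61 at GV3h (adjusted p = 0.0109) and 3.48 ± 0.68 at MII (adjusted p = 0.00279). The oocytes of the 2 genotypes do not overlap at GV and do at GV3h and MII. Its GV call was lost without V888, V856 or V889 (adjusted p 0.0872 to 0.19) and its GV3h call without V951 (adjusted p = 0.0509).

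**Figure D3:**
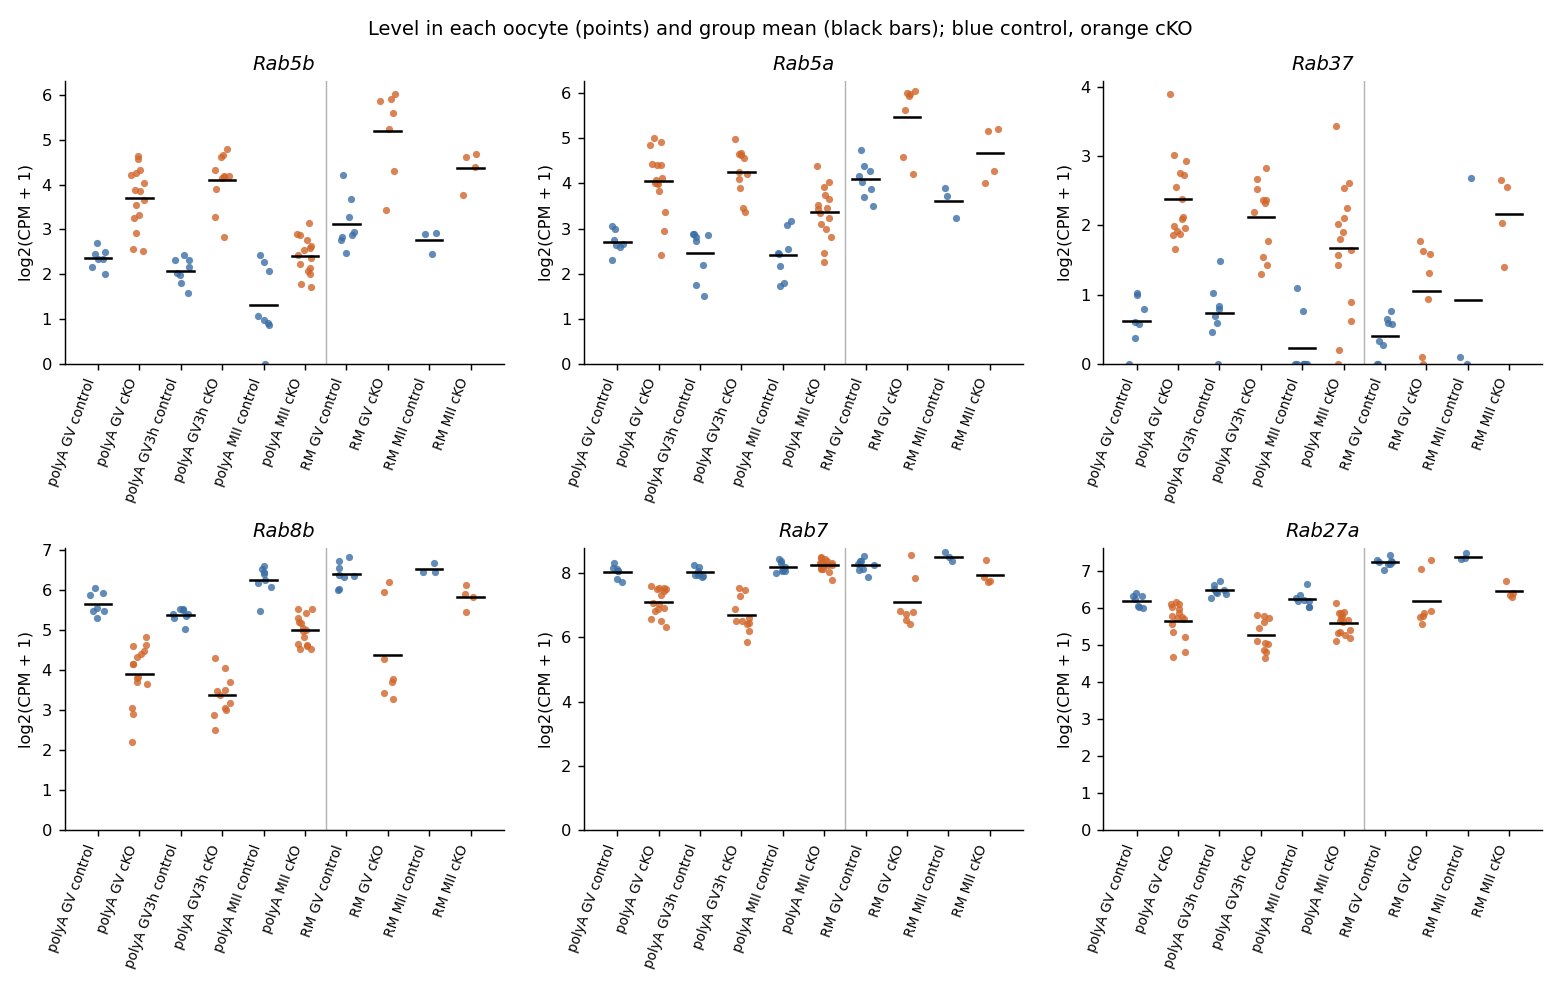
Level of Rab5b, Rab5a, Rab37, Rab8b, Rab7 and Rab27a as log2(CPM + 1) in every oocyte of the 10 groups, 1 panel a gene and 1 point an oocyte. Rab5b and Rab5a points of cKO oocytes reach above the controls at GV and GV3h, Rab8b and Rab7 points of cKO lie below them in polyA GV and GV3h, and Rab7 points of the genotypes share 1 range in polyA MII.

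Of the 13 members of the secretory route between the endoplasmic reticulum and the Golgi tested in polyA, 0 were higher at GV, 4 at GV3h and 3 at MII, and none was lower. Over all genes 3.47% were higher and 3.91% lower at the first of these stages; the shares were 12.5% and 12.7% for GV3h and 11.9% and 6.99% for MII, and no test of the group was run. Rab1a, needed for transport from the endoplasmic reticulum to the Golgi, ran from 15.6 through 28.4 to 33.5 CPM in GV3h controls and from 46.0 through 78.6 to 129.7 CPM in cKO oocytes. These groups do not overlap, and the log2 fold change was 1.55 ± 0.22 (adjusted p = 0.00025). At MII it was 1.02 ± 0.22 (adjusted p = 0.00575) and at GV 0.79 ± 0.27, not called (adjusted p = 0.0835). Its paralogue Rab1b, the more abundant of the pair, was called at no stage. The median share of Rab1a in the pair, per kilobase, was 18.8% in GV controls and 25.2% in GV cKO, and 13.4% and 30.5% at GV3h.

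Rab2b and Rab30 act at the Golgi as well. Rab2b ran from 1.81 through 3.22 to 7.51 CPM in GV3h controls and from 3.61 through 12.7 to 27.0 CPM in cKO (1.59 ± 0.38, adjusted p = 0.00672), and overlaps Tox4 on the other strand. Rab30 had 28 counts in all in GV3h controls and 287 in cKO (2.38 ± 0.72, adjusted p = 0.0242), and the call was lost without V946, V951 or V982. The GV3h call of Rab33b was lost without V951 or V993 (adjusted p 0.0594 to 0.0771). The MII call of Rab39b was lost without V853 or V897 (adjusted p 0.0874 to 0.0918). Rab40c, whose family acts in ubiquitin ligases, had a GV3h median of 2.82 CPM in controls and 13.6 CPM in cKO (2.53 ± 0.68, adjusted p = 0.0135) and lost the call without V993, V951 or V982. At MII its controls held 8 counts, all in 1 of 8 eggs, and its cKO eggs 180 (adjusted p = 0.0191, lost without V853 or V896 and, at adjusted p = 0.112, in the fit over the MII groups alone). Rab43, called higher at MII (lost without V836, V841, V842 or V896), overlaps exons of Gm45140 on its own strand. Reads in the shared bases cannot be assigned to either gene alone.

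The most abundant members and the recycling endosome group had no genotype call in polyA except Rab7, and Rab3d at MII. None of the 7 recycling endosome members tested in polyA was called at any of the 3 stages, where 7.38%, 25.2% and 18.9% of all genes were called in either direction at GV, GV3h and MII. No test of the group was run, and 7 members are few for a share of this size. Rab11a, which returns cargo from recycling endosomes to the surface, ran from 336.1 through 400.5 to 473.3 CPM in polyA GV controls and from 252.8 through 357.4 to 446.0 CPM in cKO, with a log2 fold change of -0.30 ± 0.14 (adjusted p = 0.198). Rab38 and Rab6a had 0.06 ± 0.16 and -0.03 ± 0.17 at GV. The interval of 2 SE on each side ran from -0.26 to 0.38 for Rab38 and from -0.37 to 0.30 for Rab6a. At RiboMinus MII, Rab11a averaged 342 CPM in control female V1145 and 167.9 and 212 CPM in cKO females V1166 and V1167. The eggs of the genotypes did not overlap there, and Rab11a was not called.

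In the RiboMinus GV oocytes no member was called in the fit over all 7 females, where 0.0275% of all 25425 genes tested were called higher and 0.00393% lower. At an unadjusted p under 0.05 there were 18 of 56 members and 3727 of all genes, DESeq2's Wald test called 12 of 59 members (4.39% of all genes), and edgeR with the oocyte as replicate called 21 of 46 (37.6% of all genes). Without V1126_2 and V1126_3, a choice made after the data were seen, 14 members were called, 11 higher and 3 lower, where 2650 of 25531 genes were called (10.4%). The 3 lower were Rab7, Rab8b and Rab27a, which are also members called lower in polyA. The higher ones included Rab5a, Rab5b, Rab1a, Rab2b, Rab28, Rab33b and Rab40c. The way those oocytes were picked favours such calls, so the overlap with polyA is no separate check.

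The levels in single oocytes show how far apart these 2 lay. Rab8b was at 60.8 and 72.6 CPM in V1126_2 and V1126_3, between 8.65 and 18.2 CPM in the other 5 cKO oocytes, and between 62.7 and 112 CPM in the 8 controls. Rab7 was at 230 and 373 CPM in these 2, between 84.6 and 113 CPM in the other 5, and between 231.8 and 366.8 CPM in controls. Rab5b was at 18.9 and 9.83 CPM in these 2, between 37.0 and 63.5 CPM in the other 5, and between 4.58 and 17.4 CPM in controls. For all 3 genes the 2 oocytes lie in or next to the control range and the other 5 cKO oocytes lie outside it. The log2 fold change of Rab8b was -1.68 ± 0.44 with all oocytes (adjusted p = 0.163) and -2.98 ± 0.27 without the 2 (adjusted p = 0.00125). Rab7 had -0.96 ± 0.35 (adjusted p = 0.275) and -1.59 ± 0.21 (adjusted p = 0.00408), and Rab5b 2.19 ± 0.43 (adjusted p = 0.113) and 2.38 ± 0.33 (adjusted p = 0.00417). The share of Rab8b in the Rab8 pair had a median of 56.9% in RiboMinus GV controls 17.7% over all 7 cKO oocytes and 16.8% over the 5 without V1126_2 and V1126_3.

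The genotype differences of the 53 members tested in both library types had a Pearson r of 0.767 and a Spearman rho of 0.809 between polyA GV and RiboMinus GV, which rest on different females, and 0.672 and 0.699 without V1126_2 and V1126_3. At MII they were 0.381 and 0.328. This is a description across genes that share reference and annotation. In the RiboMinus MII eggs 2 of 56 members were higher in cKO (Rab2b and Rab30) and 1 was lower (Rab3b), against 3.61% and 3.69% of all genes. Library totals moved the median of all genes up by 0.20 here and the share of called genes that were higher from 49.5% to 65.9%, with 3 members higher and 1 lower. The control eggs came from 1 female, which the fit assumed to vary like the other groups. Rab3b, a secretory vesicle Rab, was at 125, 150 and 178 CPM in the 3 control eggs and ran from 41.4 to 63.1 CPM in the 4 cKO eggs (-1.57 ± 0.32, adjusted p = 0.0283). Rab2b was at 10.52, 9.08 and 3.94 CPM in control eggs and at 34, 22.9, 22.3 and 22.5 CPM in cKO eggs (1.76 ± 0.43, adjusted p = 0.0457), and lost the call without V1166. Egg V1166_1, the highest of these, had blood and immune markers at 61.6 CPM in sum, against 12.3, 1.79 and 4.43 CPM in the other 3 cKO eggs and at most 3.95 CPM in the controls; without its female V1166, Rab2b had 1.52 (adjusted p = 0.0642), and Rab30 and Rab3b kept their calls. In the fit over the RiboMinus MII groups alone both higher calls were lost, with Rab30 at 5.14 (adjusted p = 0.0933) and Rab2b at 1.85 (adjusted p = 0.0552). Rab30 had 3 counts in all in the control eggs and 295 in the cKO eggs. Rab5b did not pass here (1.68 ± 0.55, adjusted p = 0.0951), with 6.62, 4.51 and 6.48 CPM in control eggs and 20.1, 23.5, 24.8 and 12.6 CPM in cKO eggs, which do not overlap.

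Single cKO oocytes of a group differed from each other, and several members varied together. Across the 15 polyA GV cKO oocytes, log2(CPM + 1) of Rab5b and Rab7 had a Pearson r of -0.894 and a Spearman rho of -0.914, and r was -0.934 without the 2 oocytes farthest from the median of Rab5b. Within the 10 oocytes of female V888 alone r was -0.866, and in controls it was -0.235 over 7 GV oocytes, -0.337 over 8 GV3h oocytes and -0.631 over 8 MII eggs. Of the other 7 pairs computed over the same 15 oocytes, r for Rab5b was 0.781 with Rab5a, 0.837 with Rab1a, -0.604 with Rab8b, -0.421 with Rab27a, -0.491 with Rab14 and -0.396 with Rab6a. Rab7 with Rab8b had 0.795, and 0.602 without the 2 oocytes farthest from the median of Rab7. In the 11 GV3h cKO oocytes the value for Rab5b and Rab7 was -0.824, and -0.594 without the 2 farthest. In the 15 MII cKO eggs it was -0.02. These values describe oocytes that share females, library preparation and scaling. On the first principal component of all genes the polyA GV cKO oocytes spread from -114.5 to -61.8, and the controls from -34.6 to -18.1. Whether other gene pairs vary alike along that spread was not tested, so the values are not read as particular to Rab genes. No pooled value is given for the RiboMinus GV cKO oocytes, which fall into 2 clusters.

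**Figure D4:**
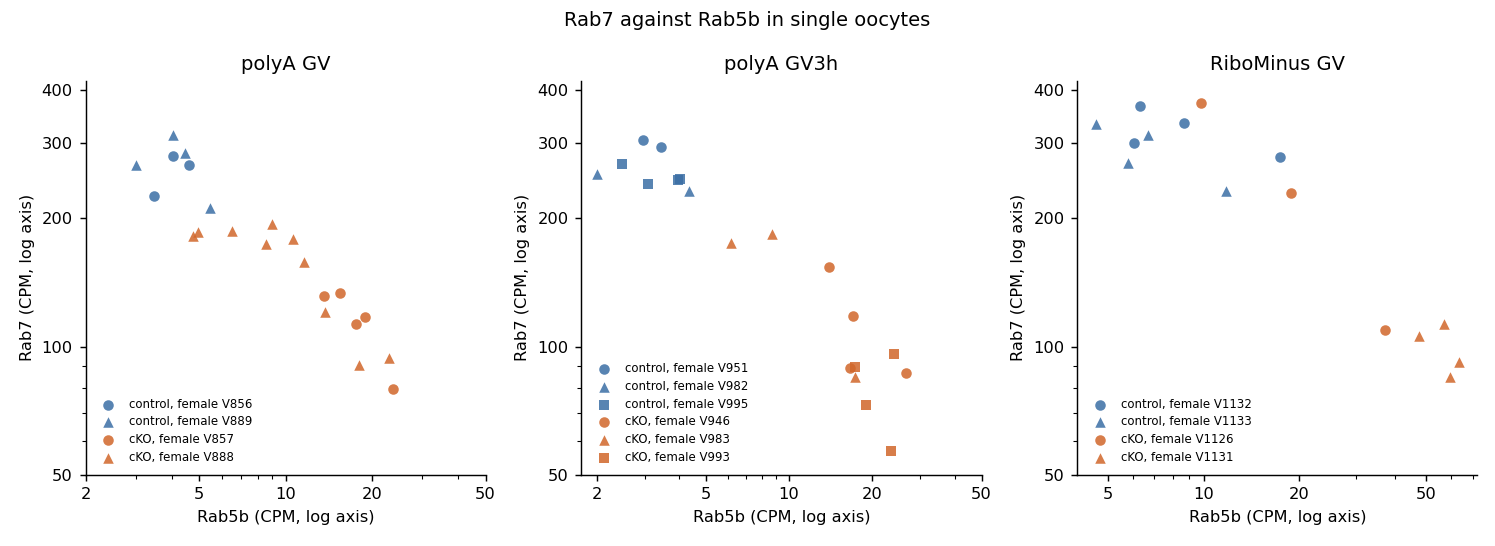
Rab7 against Rab5b in CPM (both axes log) in single oocytes of polyA GV, polyA GV3h and RiboMinus GV, with blue for control and orange for cKO and a marker shape for each female. Control oocytes sit at high Rab7 and low Rab5b, cKO oocytes spread from there to high Rab5b and low Rab7, and 2 oocytes of female V1126 sit among or next to the RiboMinus controls.

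No member was called as changed by 3 h of culture. Against GV, 0 of 53 members were called at GV3h in polyA controls, where 0% of all genes were called higher and 0% lower, and 0 of 53 in cKO, with 0% and 0% of all genes. At an unadjusted p under 0.05 there were 0 members in controls and 1 in cKO, against 425 and 373 of 19242 genes. DESeq2 and the fit over oocytes also called 0 members in either genotype, where at most 0.602% of all genes were called.

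Maturation to MII changed 26 of 53 members in the polyA libraries of each genotype. In controls 11 were higher at MII (Rab10, Rab12, Rab14, Rab18, Rab1b, Rab23, Rab2a, Rab2b, Rab31, Rab3d and Rab6a) and 15 lower (Rab13, Rab1a, Rab21, Rab22a, Rab24, Rab25, Rab33a, Rab39b, Rab3b, Rab40c, Rab4a, Rab4b, Rab5b, Rab5c and Rab8a), where 16.8% of all genes were higher and 25.7% lower. In cKO 13 were higher and 13 lower, against 18.1% and 26.6% of all genes. Of the controls' calls, 9 of the 11 higher and 11 of the 15 lower were called in the same direction in cKO. The same share over all genes was not computed. Library totals in place of TMM scaling lowered the median of all genes by 0.43 in controls and 0.52 in cKO, and gave 7 members higher and 18 lower in controls and 6 and 23 in cKO, with Rab11a and Rab23 changing sign in cKO. In controls the calls of Rab1b, Rab23, Rab2a and Rab2b as higher were lost with library totals. Of all called genes, 39.5% were higher in controls under TMM and 21.4% under library totals, and in cKO 40.5% and 20.04%.

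By role, 4 of 7 early endosome members were lower at MII and 1 was higher in polyA controls, where 25.7% of all genes were lower and 16.8% higher. In cKO 5 were lower and 0 higher, against 26.6% and 18.1%. No test of the group was run. Rab5c fell by 1.78 ± 0.17 in controls (adjusted p = 6.16e-07) and by 1.24 ± 0.17 in cKO (adjusted p = 2.6e-05) on the log2 scale. Of the secretory members between endoplasmic reticulum and Golgi, 5 of 13 were higher and 3 lower in controls, against 16.8% and 25.7% of all genes. Rab6a, which acts in traffic within and from the Golgi, ran from 224.7 through 233.8 to 270.3 CPM in GV controls and from 574.4 through 672.6 to 769.3 CPM in MII controls, a log2 fold change of 1.51 ± 0.16 (adjusted p = 1.74e-06). Rab14, of recycling and early endosomes, ran from 246.5 through 293.8 to 323.6 CPM at GV and up to 1209 CPM at MII with a median of 949.8 CPM (1.82 ± 0.13, adjusted p = 2.04e-08). Neither group of values overlaps its GV counterpart.

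In the RiboMinus libraries neither Rab14 nor Rab6a was called. Rab14 ran from 260.6 through 288.3 to 332.6 CPM in RiboMinus GV controls and was at 257.8, 305.1 and 306.3 CPM in the MII controls, a log2 fold change of 0.02 ± 0.36 (adjusted p = 1). Rab6a had -0.22 ± 0.26 (adjusted p = 0.714). No member was called in the RiboMinus controls, where 0.00787% of all genes were higher and 0% lower. At an unadjusted p under 0.05 there were 10 of 56 members and 3834 of 25425 genes. DESeq2 called 3 of 59 members (4.65% of all genes), and 12 of 46 were called with the oocyte as replicate (30.9% of all genes). None was called in RiboMinus cKO either, where 0.61% of all genes were higher and 1.71% lower. In that comparison 9 members and 5166 of 25425 genes were at an unadjusted p under 0.05. DESeq2 called 3 members (8.31% of all genes), the oocyte as replicate gave 6 (16.1%), and 6 were called without V1126_2 and V1126_3 (6.29%).

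The members called in polyA were then read in the RiboMinus libraries. The 11 members higher at MII in polyA controls had a median log2 fold change of 1.17 there and of 0.02 in RiboMinus, where 6 were above 0. The 15 lower members had a median of -2.43 in polyA and of 0.48 in RiboMinus, where 11 were above 0. In cKO the 13 higher members had medians of 1.10 in polyA and 0.33 in RiboMinus, where 11 were above 0, and the 13 lower members -1.57 and -0.17, where 5 were above 0. Without V1126_2 and V1126_3 these cKO counts were 10 of 13 and 5 of 13, with RiboMinus medians of 0.21 and -0.13. Over all genes called in polyA, the RiboMinus change was above 0 for 34.5% of those higher and 55.8% of those lower in controls, and for 57.7% and 35.3% in cKO (62.8% and 36.6% without the 2 oocytes). The RiboMinus MII controls are eggs of 1 female, V1145, and whether the genotypes differ in these counts was not tested. Rab4b, of recycling endosomes, fell by 3.03 ± 0.28 in polyA controls (adjusted p = 3.36e-07) and had 0.94 ± 0.38 in RiboMinus (adjusted p = 0.293), with exons that overlap Gm21983 on its own strand. Rab3b fell by 2.54 ± 0.24 in polyA (adjusted p = 4.03e-07) and had 1.75 ± 0.32 in RiboMinus (adjusted p = 0.0905). Over all 53 members the control changes of the 2 library types had a Pearson r of 0.199 and a Spearman rho of -0.171, across genes. The difference between the library types was not tested in a model, since they were made from other females with another chemistry.

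**Figure D5:**
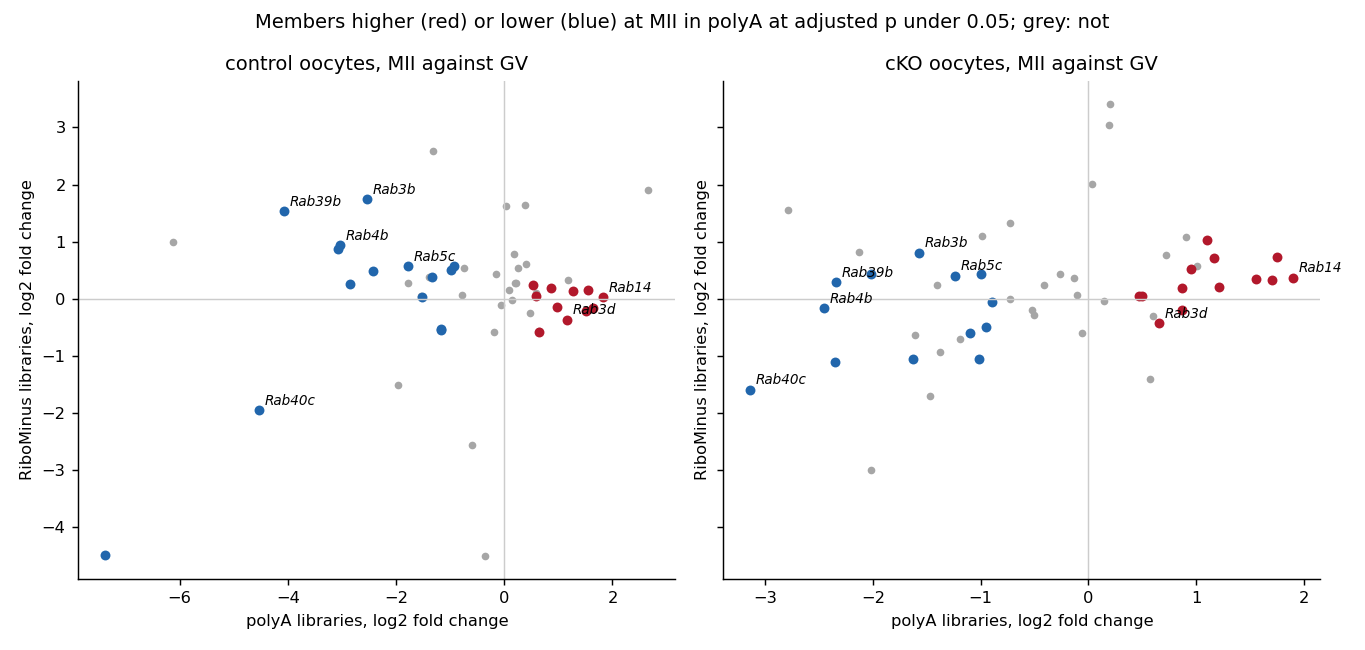
Log2 fold change from GV to MII in polyA (x axis) and RiboMinus (y axis) libraries for the 53 members tested in both, in control (left) and cKO oocytes (right), with red for members called higher and blue for those called lower in polyA. In controls the red points lie close to 0 on the y axis and most blue points lie above it.

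Oligo-dT capture needs a poly(A) tail, and maturing oocytes are known to lengthen the tails of some stored mRNAs through a cytoplasmic polyadenylation element (CPE) near the poly(A) signal and to shorten those of others. The 3′ ends of the members are therefore shown. The letters searched on the sense strand were TTTTAT and TTTTAAT for the CPE, in the last 100 bases of the principal GENCODE M21 transcript (GRCm38), and AATAAA and ATTAAA for the signal, in the last 40 bases. CPE letters were in 3 of the 11 members higher at MII in polyA controls (27.3%), in 0 of the 15 lower members, in 6 of the 27 not called (22.2%) and in 9 of all 53 (17.0%). Of all genes with such a 3′ end they were in 32.1% of 2867 higher at MII, in 9.61% of 3987 lower, in 18% of 7661 not called, and in 18.5% of 14515 tested. A match is a description of these letters and not a site, and a missing match says only that the letters are not in this window.

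Windows of 30 bases around CPE letters, in capitals, are shown for Rab6a and Rab2b, which were called higher at MII (Rab2b not with library totals), and for Rab5a and Rab8b, which differed by genotype. Rab6a is from chr7:100641207-100641236 on the plus strand, Rab2b from chr14:52261798-52261827 on the minus strand, Rab5a from chr17:53507622-53507651 on the plus strand and Rab8b from chr9:66843718-66843747 on the minus strand, all in the 3′ untranslated end.
Rab6a: ttgactcttttgTTTTATtttgacatggca
Rab2b: aaattttctaatTTTTATtgttaatgaccg
Rab5a: accggtgtttagTTTTATattgaggtgctc
Rab8b: tttaaaaatgaaTTTTATtccaggtgaact

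Rab14, the member with the smallest p at MII, has no CPE letters in its last 100 bases but holds 2 signals, in capitals, in the window shown near its 3′ end (chr2:35180208-35180237, minus strand). Rab5c (chr11:100715023-100715052, minus strand), Rab8a (chr8:72183864-72183893, plus strand) and Rab1a (chr11:20226806-20226835, plus strand), which were lower at MII in polyA, have 1 signal each in the windows shown and no CPE letters.
Rab14: taAATAAAgtacctgtatctagATTAAAtt
Rab5c: catctgtctccccccagcttacATTAAAgg
Rab8a: cttctgcttcccacatgctgacATTAAAgg
Rab1a: tttccatctatgagaatttcacAATAAAat

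No member was called in the test of whether its change from GV to MII differed between the genotypes. In polyA 0 of 53 members were called, where 1.94% of all genes were called in either direction. At an unadjusted p under 0.05 there were 8 members and 3086 of 19242 genes. DESeq2 called 1 member (2.95% of all genes), and 7 of 49 were called with the oocyte as replicate (14.7% of all genes). Rab31 came closest: it rose by 1.63 ± 0.41 in controls (adjusted p = 0.00433), had -0.53 ± 0.38 in cKO, and the difference was -2.16 ± 0.55 (adjusted p = 0.0586). In RiboMinus 0 of 56 members were called, where 0% of all genes were called. At an unadjusted p under 0.05 there were 3 members and 3611 of 25425 genes. DESeq2 called 0 members (3.48% of all genes), and 3 of 53 were called with the oocyte as replicate (14.8% of all genes).

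Genes that act on Rab proteins were read from 4 lists, whose counts stand beside 3.47% of all genes higher and 3.91% lower at polyA GV; the shares were 12.5% and 12.7% for GV3h and 11.9% and 6.99% for MII. No test of a list was run, and RiboMinus MII calls rest on control eggs of 1 female. All 9 calls of list genes at polyA GV were lost in the fit over the polyA GV groups alone (adjusted p 0.144 to 0.264). Gdi2, Dennd6a, Tbc1d15, Rabgap1l, Tbc1d22a, Sytl2 and Rabep2 were among them. In the same kind of fit all 38 at GV3h were kept, and of 16 at polyA MII 12 were kept, 3 lost and 1 not tested. Calls were also lost at RiboMinus MII. Results without 1 female are not given for list genes. Of 7 genes for prenylation and membrane extraction, 0 were higher and 1 lower at polyA GV, the same at GV3h, and 1 higher and 0 lower at MII, with a median log2 fold change of -0.07, 0.11 and 0.61. The one higher at MII was Rabac1, a Rab acceptor of the Golgi (0.94 ± 0.21, adjusted p = 0.00681), which had the opposite sign in RiboMinus MII and was not called there (-1.22 ± 0.33, adjusted p = 0.0589). The lower one was Gdi2, which takes GDP-bound Rab proteins off membranes, with 251.9 ± 22.0 CPM (SD, n = 7) in GV controls and 172.3 ± 14.7 CPM (SD, n = 15) in cKO and a log2 fold change of -0.62 ± 0.13 (adjusted p = 0.013). Of 32 exchange factors tested, 0 were higher and 1 lower at GV; GV3h gave 2 and 10, and MII 3 and 3, with a median log2 fold change of -0.15, -0.18 and -0.06. Dennd6a, an exchange factor for Rab14, was lower at all 3 stages (-1.15 ± 0.22 at GV, adjusted p = 0.0077, and -1.26 ± 0.18 at GV3h, adjusted p = 0.000219), while Rab14 itself was called at none. Rab3il1, an exchange factor for Rab8 proteins, was lower at GV3h (-0.69 ± 0.21, adjusted p = 0.0243) and RiboMinus MII (-1.40 ± 0.25, adjusted p = 0.0233). Dennd6b had 0 CPM in all 8 polyA MII control eggs and up to 2.91 CPM in cKO eggs.

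Of 32 GTPase activating proteins tested, 2 were higher and 3 lower at GV; GV3h gave 5 and 8, and MII 2 and 4. Tbc1d15, which acts on Rab7, was lower at GV (-0.64 ± 0.17, adjusted p = 0.0362) and GV3h (-0.72 ± 0.14, adjusted p = 0.00183), the stages at which Rab7 was lower, and also at MII (-0.42 ± 0.14, adjusted p = 0.0463). Rabgap1l was lower at GV (-1.05 ± 0.28, adjusted p = 0.0358), GV3h (-1.39 ± 0.24, adjusted p = 0.000703) and RiboMinus MII (-1.40 ± 0.35, adjusted p = 0.0468, and 0.0641 in the fit over those groups alone). Tbc1d22a was higher at GV (2.34 ± 0.66, adjusted p = 0.0424) and GV3h (1.60 ± 0.53, adjusted p = 0.0372). Of 30 effectors, 1 was higher and 1 lower at GV; GV3h gave 2 and 10, and MII 0 and 3. Eea1, the tether that binds Rab5 on early endosomes, was at 148.8 ± 16.5 CPM (SD, n = 8) in GV3h controls and 99.9 ± 18.9 CPM (SD, n = 11) in cKO (-0.67 ± 0.20, adjusted p = 0.0225), and was lower at MII in polyA (-0.91 ± 0.20, adjusted p = 0.0059) and RiboMinus (-1.56 ± 0.32, adjusted p = 0.0286; controls of 1 female). Eea1 thus went the other way from Rab5a and Rab5b at GV3h. Sytl2, an effector of Rab27a, was lower at GV (-0.93 ± 0.22, adjusted p = 0.0226), where Rab27a was not called, and at GV3h (-1.11 ± 0.18, adjusted p = 0.000604), where Rab27a was lower. At MII, where Rab27a was lower, Sytl2 was not called (-0.42 ± 0.18, adjusted p = 0.114). Rabep2, which binds Rab5 and Rab4, was higher at GV (4.46 ± 1.00, adjusted p = 0.0172) and GV3h (2.18 ± 0.72, adjusted p = 0.0363).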

How the data were processed

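Raw counts per gene were used as deposited by the authors, 1 library per oocyte. Per the submitters' processing notes these came from cutadapt 2.5, FastQC 0.11.8, STAR 2.7.2a, SAMtools 1.9 and HTSeq 0.9.1 on mm10, with R 3.5.1 and DESeq2 1.24.0; the annotation release and strand setting are not given in the sources used here. Spike-in rows and 22 rRNA files were not used here. The row of reads that match no gene held 5.85% to 14.2% of the sum of that row, the ambiguous row and the counts assigned to genes. Counts were summed per female and fitted with edgeR 4.0.16 (R 4.3.3; quasi-likelihood, TMM, filterByExpr), 1 fit over 16 polyA and 1 over 7 RiboMinus females, with Benjamini-Hochberg adjustment over all genes. CPM of single oocytes used TMM scaling. Exon lengths and coordinates came from GENCODE M21 (GRCm38). DESeq2 1.42.0, other scalings, filters and left-out females were tried, and the scripts were tested on simulated data. Members and lists were chosen with earlier results of these data known. Values were given by rule for members called with 1 sign in at least 3 of 5 genotype comparisons or in an interaction, and the 5 highest in polyA GV controls; for regulators, at most 3 a list by number of calls. Other members described with values were chosen after their values were seen. Depth limits members with few counts, which are given as counts.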

Additional observations from a re-analysis of the deposited data

Results flagged for a closer look

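In 6 of the 96 groups of 4 to 10 oocytes tested, 1 oocyte lay far from the rest, where chance gives about 1 in 20. Rab11a was at 464 CPM in polyA GV3h control V995_2, next to 398 CPM in the nearest other oocyte. Rab27a was at 100 CPM in polyA MII control V853_1, against 80.3 CPM. Rab2b was at 34 CPM in RiboMinus MII cKO egg V1166_1, against 22.9 CPM, and that egg's library is the deepest of all at 62675760 counts. Rab30 was at 4.73 CPM in polyA GV control V889_3, against 1.54 CPM. Rab40c was at 7.28 CPM in RiboMinus GV control V1132_2, against 4 CPM, and at 1.29 CPM in polyA MII control V836_1, where the other 7 eggs were at 0.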

How the results depend on the processing

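No paired analysis was possible because each female gave oocytes of 1 genotype and 1 stage, so no number is shared between groups. Under the alternatives run, none of the 37 genotype calls of members changed direction; Rab11a and Rab23 changed sign with library totals in the polyA cKO change to MII. All 37 were kept with DESeq2 and with its size factors, 36 with library totals and 36 without a filter (Rab12 at GV3h was lost in both), 33 of 33 testable ones with the oocyte as replicate, 24 of 35 with only the groups compared, and 144 of 198 over all fits that left out 1 female. The number of members called at polyA GV, 6, was 0 with only the groups compared, 10 without a filter, 11 with DESeq2 and 20 with the oocyte as replicate. These are 0%, 16.9%, 18.6% and 44.4% of members, against 0.00555%, 5.94%, 7.24% and 40.5% of all genes. At polyA MII, 12 became 7 with only the groups compared and 18 with the oocyte as replicate. The shares were 17.5% of members and 18.3% of all genes in the first, and 46.2% and 37.6% in the second. RiboMinus GV, 0, was 11 without a filter, 12 with DESeq2, 21 with the oocyte as replicate and 14 without V1126_2 and V1126_3. These are 18.6%, 20.3%, 45.7% and 25% of members, against 4.74%, 4.39%, 37.6% and 10.4% of all genes. RiboMinus MII, 3, was 10, 15 and 11 without a filter, with DESeq2 and with the oocyte as replicate. These are 16.9%, 25.4% and 21.2% of members, against 11.9%, 15% and 23.7% of all genes. The RiboMinus change to MII, 0 in both genotypes, was in controls 15 with only the groups compared, 2 without a filter, 3 with DESeq2 and 12 with the oocyte as replicate, and in cKO 5, 3 and 6 for the last 3 and 6 without V1126_2 and V1126_3. Such counts are read against those of all genes: for the RiboMinus controls' change to MII, 28.8% of members and 27.9% of all genes were called with only the groups compared, and 26.1% and 30.9% with the oocyte as replicate; at polyA GV the latter were 44.4% and 40.5%. The polyA interaction, 0, was 2, 1 and 7, and the RiboMinus interaction 3 with the oocyte as replicate. Leaving out 1 female gave 1 to 5 members at polyA GV, 9 to 16 at GV3h, 9 to 11 at MII, 0 to 8 at RiboMinus GV, 4 to 8 at RiboMinus MII, 19 to 26 and 21 to 27 for the polyA change to MII in controls and cKO, 0 to 2 for the RiboMinus change in cKO and 0 to 3 for the polyA interaction. Over all genes, the fits without 1 female called 15.67% to 24.87% at GV3h and 13.49% to 16.15% at polyA MII. The member counts at those stages are read against these shares. At polyA GV and in RiboMinus such a fit leaves 1 female in a group, so the member counts there say little. The causes of the changes in these counts were not tested, except that fewer samples remain when groups or females are left out. Depth limits Rab20, Rab30, Rab37, Rab39 and Rab40c, which had few or no counts in some control groups.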

Other observations

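Rab39, a Golgi and endosome Rab tested only in the RiboMinus libraries, had 0 counts in all 8 GV and all 3 MII control oocytes, 37 counts in the 7 GV cKO oocytes, 37 of them in the 5 other than V1126_2 and V1126_3, and 180 counts in the 4 MII cKO eggs. It was not called at either stage (adjusted p = 0.146 and 0.0591), and was called at GV without V1126_2 and V1126_3 (adjusted p = 0.0328). Rab28, linked to cilia and photoreceptors, had 98 counts in the 8 RiboMinus GV controls and 586 in the 7 cKO oocytes, 557 of them in the 5 other than V1126_2 and V1126_3, and was called higher in cKO at polyA GV3h (log2 fold change 2.48 ± 0.66, adjusted p = 0.013).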
